A study of Mus musculus with 6 samples.

Results

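The 45 genes described here encode lysosomal proteases of the cathepsin group, glycosidases, sulfatases, lipid hydrolases, phosphatases, membrane proteins and subunits of the proton pump, and were picked by gene symbol. All 45 were present in the deposited table of 24062 genes, and all 45 passed the filter on low counts that left 12126 genes for testing. RNA was sequenced from mouse leukemia cells made by retroviral introduction of the oncogene MLL-AF9 into lineage-negative hematopoietic cells, that is, after depletion of mature blood cells. The 3 KO-labelled libraries came from cells of A20 f/f mice and the 3 WT-labelled libraries from cells of A20 +/+ mice. Cells of both groups carried Rosa Cre-ER, a Cre recombinase that tamoxifen activates, so Cre itself did not differ between them. Cells of both groups carried MLL-AF9, grew with IL-6, IL-3 and SCF at 10 ng/mL each and 10% serum, and received 1 µM 4-hydroxytamoxifen for 48 h. The labels do not say whether replicates came from separate animals, transductions or cultures, so the p-values below reflect only how far these libraries vary, and that variation may be technical.

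Lysosomes are acidified by a vacuolar proton pump, the V-ATPase, and degrade protein, glycan and lipid with hydrolases that work at low pH. Most soluble hydrolases are made in the endoplasmic reticulum, tagged with mannose 6-phosphate and carried to the lysosome by receptors, while heavily glycosylated membrane proteins such as LAMP1 and LAMP2 line its wall. In myeloid cells lysosomal proteases also digest phagocytosed material, process antigen and activate the serine proteases of granules. Many lysosomal genes carry an E-box in the promoter that is bound by TFEB, TFE3 and MITF, transcription factors of the MiT/TFE family.

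RefSeq promoters (build GRCm38.p6; 250 bases before to 50 bases after each annotated start) were found for 38 of the 45 genes. The letters GTCACGTG, which extend the E-box core CACGTG by GT, were searched on both strands. They occurred in 10 of these 38 genes (26.3%), against 5.02% of 9140 tested genes with a promoter entry and 2.55% of all 27025 genes with one. The core alone, which is contained in the longer motif, occurred in 13 of 38 (34.2%), against 12.1% and 8.09%. The 38 promoters included 8 of genes called higher in KO-labelled libraries below, 4 of genes called lower and 26 of genes that passed in neither direction, and the longer motif was in 3, 1 and 6 of these. A match is a string of letters and was not tested as a binding site. The windows below are shown because they put the most E-box cores into a single promoter (Lamp1, with 4), belong to the most abundant member (Ctsd), belong to members called in opposite directions (Arsa and Lgmn), or hold 2 cores close together (Ctsa and Mcoln1). Each reads 5′ to 3′ in the direction of the gene, with the E-box cores in capitals.
Lamp1, chr8:13159074-13159177, plus strand: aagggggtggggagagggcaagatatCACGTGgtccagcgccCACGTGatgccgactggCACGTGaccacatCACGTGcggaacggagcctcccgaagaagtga
Ctsd, chr7:142387894-142387951, minus strand: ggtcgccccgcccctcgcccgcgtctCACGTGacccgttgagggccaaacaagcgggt
Arsa, chr15:89477409-89477466, minus strand: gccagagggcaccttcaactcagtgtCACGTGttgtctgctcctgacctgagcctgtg
Lgmn, chr12:102439110-102439167, minus strand: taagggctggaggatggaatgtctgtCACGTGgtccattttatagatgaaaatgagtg
Ctsa, chr2:164833735-164833809, plus strand: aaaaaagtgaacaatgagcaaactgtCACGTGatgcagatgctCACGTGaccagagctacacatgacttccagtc
Mcoln1, chr8:3500422-3500505, plus strand: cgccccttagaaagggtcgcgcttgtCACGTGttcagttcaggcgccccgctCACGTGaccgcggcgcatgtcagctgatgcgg
The 4 cores of Lamp1 began 61, 45, 28 and 15 bases before the annotated start. The single cores of Arsa and Lgmn lay 16 and 49 bases before it, the Ctsd core shown 98 bases before it (a second lay 245 bases before it), those of Mcoln1 71 and 45 bases before it, and those of Ctsa 12 bases before it and at base 6 of the transcript.

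Reads counted to genes numbered 24168326, 22382379 and 16113320 in KO-labelled libraries, against 25415274, 17095581 and 19125276 in WT-labelled libraries. Tnfaip3, the gene of A20 that was to be deleted, had 100.1, 74.1 and 79.1 CPM (read counts scaled to library size by TMM) in KO-labelled libraries, against 7.39, 8.67 and 8.24 CPM in WT-labelled libraries. It was higher in the group labelled as deleted (log2 fold change 3.38, SE 0.17, edgeR quasi-likelihood adjusted p = 4.71e-05), and counts over all exons do not measure the floxed part, so the groups are named by their labels and every direction below rests on these labels. The Y-linked gene Ddx3y had 78.5 to 89.2 CPM in the KO-labelled and 0 to 0.80 CPM in WT-labelled libraries, so donor sex and label changed together and cannot be told apart. The leukocyte gene Ptprc had 507 to 598 CPM in the KO-labelled and 214 to 433 CPM in WT-labelled libraries, and the myeloid transcription factor gene Spi1 204 to 265 and 150 to 197 CPM. Kit, a progenitor marker, had 100.3 to 103 and 307 to 403 CPM. Within both groups replicate 1 was the distant library (chi-square per degree of freedom 2.37 within the KO-labelled pair and 25.2 within the WT-labelled pair, against 79.7 to 231 for pairs that include replicate 1). Gapdh, a glycolytic gene, had 2716 CPM in KO-labelled replicate 1 and 2645 CPM in WT-labelled replicate 1, and 167 to 254 CPM in the other 4 libraries.

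Per length of annotated exon, the aspartic protease gene Ctsd was the most abundant member in every one of the 6 libraries. It averaged 2392 CPM per kilobase in the KO-labelled and 943 CPM per kilobase in WT-labelled libraries. Psap, the precursor of the saposins that help lipid hydrolases reach their substrates, followed with 887 and 424 CPM per kilobase. The carboxypeptidase gene Ctsz had 856 and 448 CPM per kilobase, so that Psap and Ctsz changed places between the groups and did not differ beyond their spread. Lamp1, a major protein of the lysosomal membrane, had 502 and 236 CPM per kilobase, and the cysteine protease gene Ctsb 465 and 170 CPM per kilobase. These 5 stood highest over all 6 libraries, and in WT-labelled libraries alone Ctsb was in place 9. At the other end were Ctsk and Acp5, which encode the collagen-degrading cathepsin and the tartrate-resistant acid phosphatase of osteoclasts. Ctsk had 27, 13 and 13 reads in the KO-labelled and 1, 9 and 47 reads in WT-labelled libraries, and Acp5 had 14, 16 and 12 reads and 23, 10 and 45 reads.

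**Figure D1:**
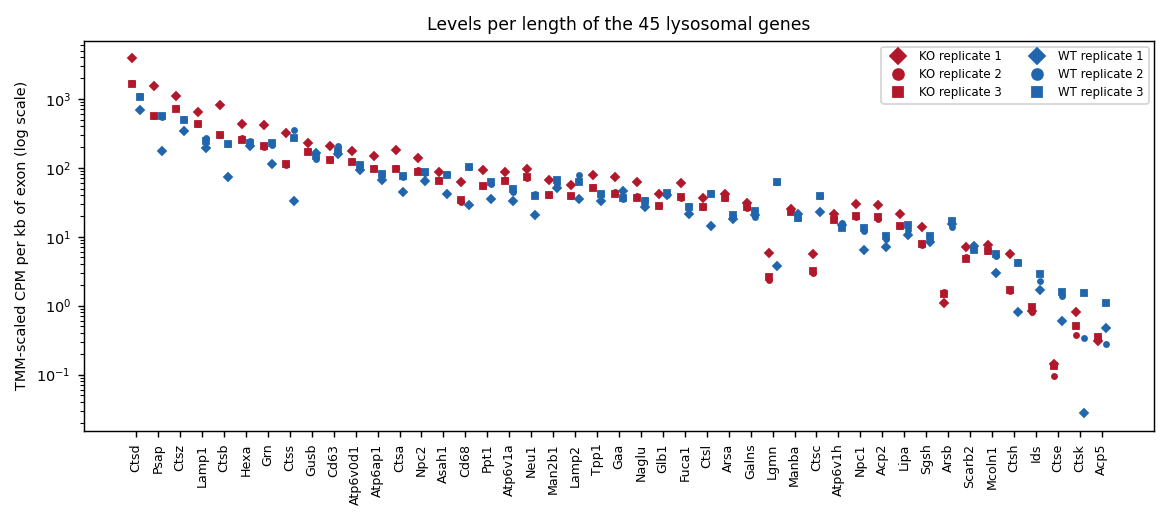
Levels of the 45 lysosomal genes per kilobase of annotated exon (TMM-scaled CPM per kilobase, log scale), ordered by the mean of 6 libraries; red points are KO-labelled and blue points WT-labelled libraries, with a marker shape for each replicate number. Ctsd stands at the top in every library, and Ids, Ctse, Ctsk and Acp5 fill the last places.

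Members of the set were called in both directions. The KO-labelled libraries had 9 members higher and 5 lower, and 31 did not pass the test at an adjusted p of 0.05 (quasi-likelihood test of edgeR, Benjamini-Hochberg over 12126 genes). The 14 called members are 31.1% of the 45, against 27.3% of all tested genes, and the shares by direction are 20% higher against 13.7% and 11.1% lower against 13.7%. The share called is thus near that of all genes. The median log2 fold change of the 45 was 0.41, against -0.04 over all tested genes, and 29 of 45 were above 0. Groups did not overlap for 27 of 45 members (60%), against 47.6% of tested genes. The falls were larger than the rises: the 5 members that fell had log2 fold changes of -1.38 to -3.56, and the 9 that rose had 0.78 to 1.34.

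**Figure D2:**
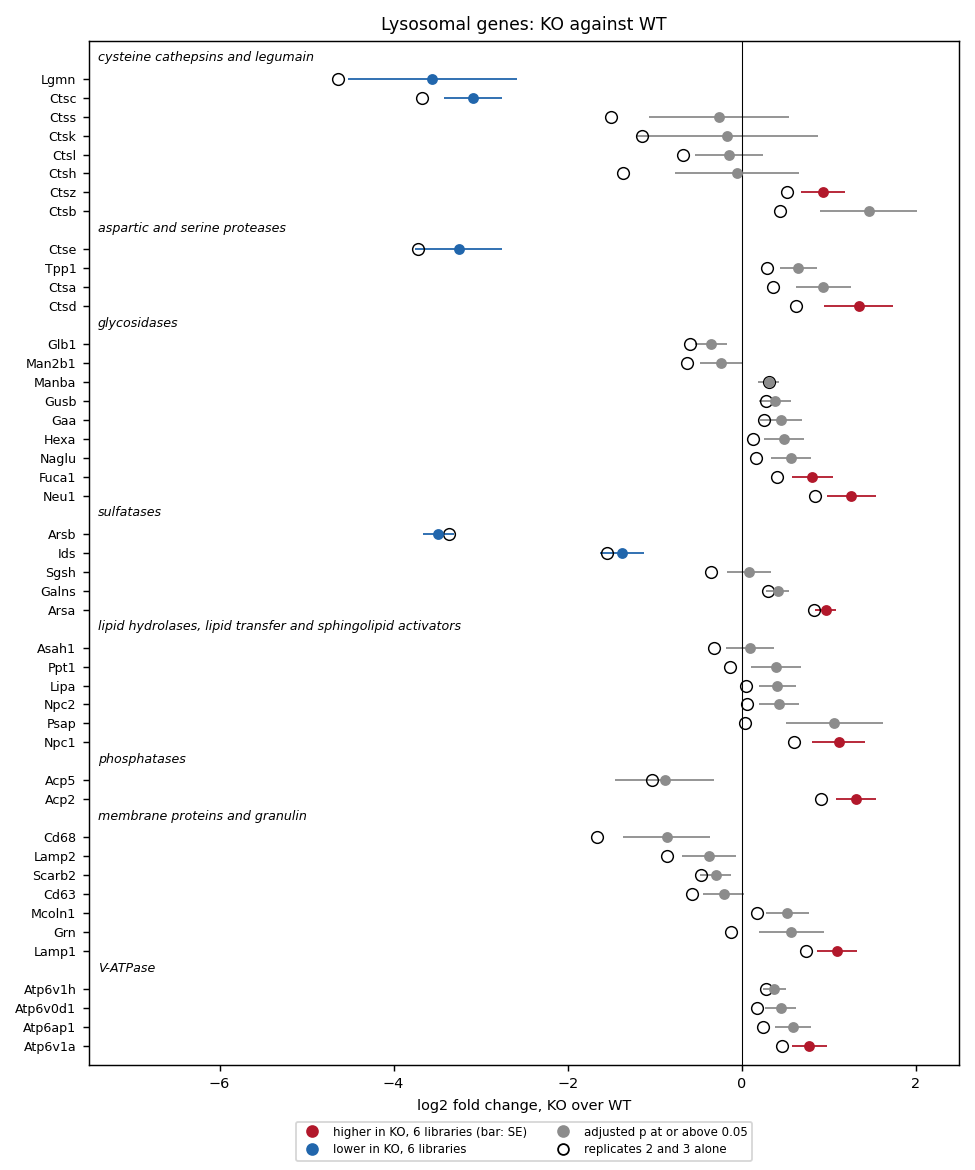
Log2 fold change (KO-labelled over WT-labelled) of each of the 45 genes by family; filled points with SE bars are the fit of all 6 libraries (red higher, blue lower, grey at or above an adjusted p of 0.05), and open circles the fit of replicates 2 and 3 alone. Lgmn, Ctsc, Ctse and Arsb lie beyond -3, and most open circles lie left of the filled points.

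Among the cysteine proteases Ctsc and Lgmn fell and Ctsz rose, while Ctsb, Ctsh, Ctsk, Ctsl and Ctss did not pass. Ctsc (chromosome 7, 88278085 to 88310888 of mm10) encodes dipeptidyl peptidase I, which activates the serine proteases of myeloid granules. Its level was 32.6, 17.5 and 18.5 CPM in KO-labelled libraries, against 131, 224 and 228 CPM in WT-labelled libraries. All 3 KO-labelled libraries lay far below all 3 WT-labelled libraries (log2 fold change -3.09, SE 0.33, edgeR adjusted p = 8.9e-04). Lgmn (chromosome 12, 102394084 to 102439813) encodes legumain, an asparaginyl endopeptidase that also processes cathepsins. It had 13.3, 5.54 and 6.03 CPM in KO-labelled libraries, against 8.81, 143 and 142 CPM in WT-labelled libraries. Here the groups overlapped: WT-labelled replicate 1 was below KO-labelled replicate 1, and the fall (log2 fold change -3.56, SE 0.97, edgeR adjusted p = 0.035) rested on WT-labelled replicates 2 and 3. Leaving out KO-labelled replicate 1, 2 or 3 (adjusted p = 0.082, 0.14 and 0.13) or WT-labelled replicate 2 or 3 (0.095 in both) ended the call.

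Ctsz (chromosome 2, 174427493 to 174439039) had 1591, 1075 and 1033 CPM in KO-labelled libraries, against 489, 733 and 716 CPM in WT-labelled libraries. The groups did not overlap (log2 fold change 0.93, SE 0.25, edgeR adjusted p = 0.032), and the call was lost on leaving out KO-labelled replicate 1, 2 or 3 (adjusted p = 0.089, 0.069 and 0.060) or WT-labelled replicate 2 or 3 (0.069 and 0.071). Ctsb, a broadly acting endopeptidase, had 4839, 1832 and 1779 CPM in KO-labelled libraries, against 441, 1319 and 1318 CPM in WT-labelled libraries. The groups did not overlap and the log2 fold change was the highest of the 45, but each replicate 1 stood far from its group, and the gene did not pass (log2 fold change 1.46, SE 0.55, edgeR adjusted p = 0.095). Ctss, a protease of antigen processing, had 438, 148 and 153 CPM in KO-labelled libraries, against 44.7, 479 and 364 CPM in WT-labelled libraries. Replicate 1 was the highest KO-labelled and the lowest WT-labelled library, and the fold change was close to 0 for its error (log2 -0.26, SE 0.81). Ctsl and Ctsh, both endosomal cysteine cathepsins, showed the same order of libraries and log2 fold changes of -0.15 (SE 0.39) and -0.05 (SE 0.71).

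The aspartic and serine proteases were split too. Ctsd (chromosome 7, 142375911 to 142388038), the main aspartic protease of the lysosome, had 9019.7, 3987 and 3867 CPM in KO-labelled libraries, against 1592, 2594 and 2462 CPM in WT-labelled libraries. Every KO-labelled library was above every WT-labelled library (log2 fold change 1.34, SE 0.40, edgeR adjusted p = 0.045), yet the call was lost when any 1 of the 6 libraries was left out (adjusted p = 0.090, 0.063 and 0.058 without KO-labelled replicates 1, 2 and 3, and 0.058, 0.097 and 0.10 without WT-labelled replicates 1, 2 and 3). Of its annotated exon length, 34.4% is shared on the same strand with the gene model Gm49369, so reads there may have been split or left uncounted. Ctse (chromosome 1, 131638306 to 131675505), an aspartic protease of endosomes, had 0.45, 0.30 and 0.42 CPM in KO-labelled libraries, against 1.92, 4.42 and 4.96 CPM in WT-labelled libraries. It was low in both groups and lower in all 3 KO-labelled libraries (log2 fold change -3.25, SE 0.50, edgeR adjusted p = 0.0038). Ctsa, a carboxypeptidase that also stabilises Glb1 and Neu1, and Tpp1, a tripeptidyl peptidase, had no overlap between groups and log2 fold changes of 0.94 (SE 0.32) and 0.65 (SE 0.21), with edgeR adjusted p of 0.069 and 0.060.

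Of 9 glycosidases 2 rose and 7 did not pass. The log2 fold changes of these 7 were between -0.35 and 0.57, below 0 for Glb1 and Man2b1 and above 0 for the others. Neu1 (chromosome 17, 34931253 to 34935953), the lysosomal sialidase, had 359, 267 and 277 CPM in KO-labelled libraries, against 76.7, 155 and 146 CPM in WT-labelled libraries. All 3 KO-labelled libraries were higher (log2 fold change 1.26, SE 0.28, edgeR adjusted p = 0.016), and the call was lost without KO-labelled replicate 1 (0.063). Fuca1 (chromosome 4, 135920735 to 135940311), which removes fucose from glycans, had 197, 120 and 122 CPM in KO-labelled libraries, against 69.2, 92.8 and 88.1 CPM in WT-labelled libraries. The groups did not overlap (log2 fold change 0.81, SE 0.23, edgeR adjusted p = 0.039), and the call was lost on leaving out KO-labelled replicate 1, 2 or 3 (adjusted p = 0.074, 0.053 and 0.056) or WT-labelled replicate 2 or 3 (0.081 and 0.094). The glycogen-degrading Gaa, the hexosaminidase subunit gene Hexa, Gusb, Naglu and Manba had log2 fold changes of 0.31 to 0.57.

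Among the sulfatases Arsa rose, Arsb and Ids fell, and 2 did not pass. Arsb (chromosome 13, 93771630 to 93943016), which removes sulfate from dermatan and chondroitin chains, had 6.71, 9.48 and 8.77 CPM in KO-labelled libraries, against 93.7, 84.3 and 102 CPM in WT-labelled libraries. The groups were far apart and each was tight (11.2-fold lower in the KO-labelled group; log2 fold change -3.49, SE 0.18, edgeR adjusted p = 5.07e-05). Gene models on the opposite strand overlap 39.9% of its exon length, and whether counting used strand is not stated in the labels or processing notes, so the reads of Arsb and those of these antisense models cannot be told apart. Arsa (chromosome 15, 89472476 to 89477425), which acts on sulfated lipids of membranes, had 154, 133 and 134 CPM in KO-labelled libraries, against 67.1, 73.6 and 75.3 CPM in WT-labelled libraries. It rose in all 3 (log2 fold change 0.96, SE 0.12, edgeR adjusted p = 0.0016), and 18.8% of its exon length is overlapped on the opposite strand. The same limit holds for Ctsl (26.8% of exon length), Sgsh (21.6%), Ctsa (17.4%), Ctsb and Hexa (12.8% each) and Acp2 (12.6%). It also holds for Lamp1 (9.3%), Acp5 (6.7%) and Npc1 (5.3%), and the other members had at most 3.5% on the opposite strand. Ids (chromosome X, 70343069 to 70365084), the iduronate sulfatase, had 4.33, 4.20 and 4.95 CPM in KO-labelled libraries, against 8.68, 11.7 and 14.7 CPM in WT-labelled libraries. All 3 KO-labelled libraries were lower (log2 fold change -1.38, SE 0.25, edgeR adjusted p = 0.0077). Ids, Lamp2 and Atp6ap1 are the X-linked members, and their values cannot be told apart from the difference in donor sex. Galns and Sgsh, which act on keratan and heparan sulfate, had log2 fold changes of 0.41 (SE 0.13) and 0.08 (SE 0.25) and did not pass.

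Among genes of lipid degradation and transport, Npc1 rose and the other 5 did not pass. Npc1 (chromosome 18, 12189692 to 12236400) is the membrane protein that exports cholesterol from lysosomes. It had 337, 219 and 225 CPM in KO-labelled libraries, against 72.7, 136 and 152 CPM in WT-labelled libraries. The groups did not overlap (log2 fold change 1.11, SE 0.31, edgeR adjusted p = 0.035), and the call was lost on leaving out KO-labelled replicate 1, 2 or 3 (adjusted p = 0.12, 0.060 and 0.065) or WT-labelled replicate 2 or 3 (0.085 and 0.0503). Psap had 4171, 1569 and 1564 CPM in KO-labelled libraries, against 473, 1476 and 1545 CPM in WT-labelled libraries. Outside replicate 1 its levels were close between the groups (edgeR adjusted p = 0.21 over all 6 libraries). Npc2, the soluble partner of Npc1, the acid lipase gene Lipa, the thioesterase gene Ppt1 and the acid ceramidase gene Asah1 had log2 fold changes of 0.10 to 0.43. Of the phosphatases, Acp2 (chromosome 2, 91202885 to 91214098) had 149, 93.5 and 99.6 CPM in KO-labelled libraries, against 36.6, 48.1 and 53.0 CPM in WT-labelled libraries. It rose in all 3 (log2 fold change 1.31, SE 0.23, edgeR adjusted p = 0.0060). Acp5 did not pass (log2 fold change -0.88, SE 0.57).

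Of the membrane proteins Lamp1 alone passed. Lamp1 (chromosome 8, 13159161 to 13175338) had 1712, 1157 and 1160.4 CPM in KO-labelled libraries, against 520, 718 and 656 CPM in WT-labelled libraries. The groups did not overlap (log2 fold change 1.09, SE 0.23, edgeR adjusted p = 0.013). Lamp2, its relative that serves in chaperone-mediated autophagy, had 544, 375 and 378 CPM in KO-labelled libraries, against 341, 761 and 586 CPM in WT-labelled libraries. The groups overlapped and it did not pass (log2 fold change -0.38, SE 0.31). Cd68, a macrophage-associated lysosomal glycoprotein, had 78.2, 39.8 and 42.4 CPM in KO-labelled libraries, against 36.1, 127 and 129 CPM in WT-labelled libraries, and did not pass (log2 fold change -0.87, SE 0.50). The tetraspanin gene Cd63, the membrane receptor gene Scarb2, the calcium channel gene Mcoln1 and the progranulin gene Grn lay between -0.30 and 0.57 on the log2 scale. Of the exon sequence of Cd63, 13.4% of 31-base words also occur in its pseudogene Cd63-ps, so reads may be split between the copies. Of 4 V-ATPase genes, Atp6v1a (chromosome 16, 44085402 to 44139705), the catalytic subunit, had 528, 399 and 387 CPM in KO-labelled libraries, against 202, 270 and 296 CPM in WT-labelled libraries. It rose without overlap (log2 fold change 0.78, SE 0.20, edgeR adjusted p = 0.029), with the call lost on leaving out KO-labelled replicate 1, 2 or 3 (adjusted p = 0.087, 0.069 and 0.060) or WT-labelled replicate 2 (0.080). The subunit genes Atp6v0d1 and Atp6v1h and the accessory gene Atp6ap1 had log2 fold changes of 0.37 to 0.59 and no overlap between groups, with edgeR adjusted p of 0.075 to 0.10.

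**Figure D3:**
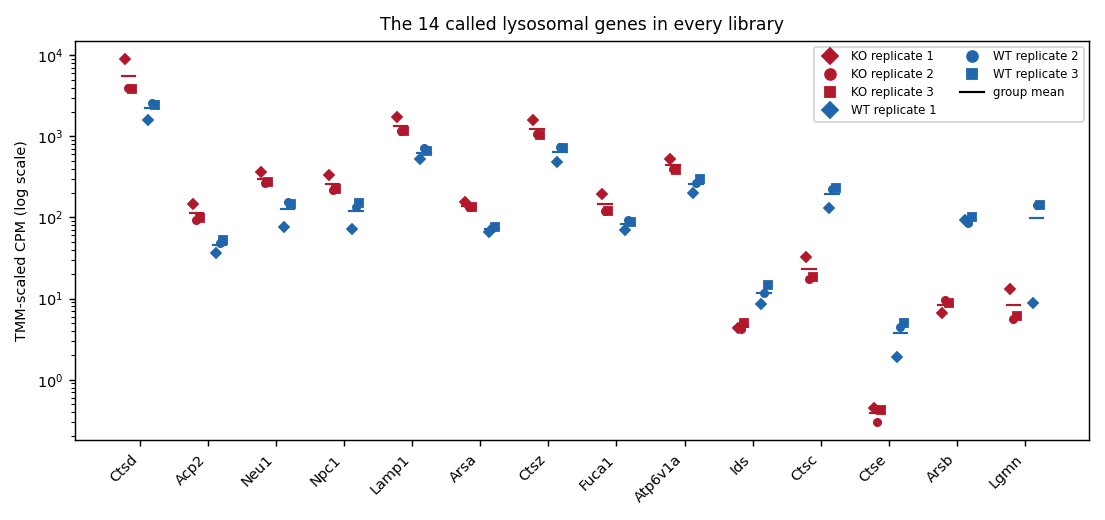
TMM-scaled CPM (log scale) of the 14 members that passed, in each library; red is KO-labelled, blue WT-labelled, diamonds are replicate 1 and short lines the group means of 3. For the 9 members that rose the red diamond is the highest point and the blue diamond the lowest, and for Lgmn the blue diamond falls among the red points.

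The values of replicate 1 ran the same way through most of the set. KO-labelled replicate 1 was the highest of its group for 42 of 45 members, against 45.3% of tested genes, and WT-labelled replicate 1 was the lowest of its group for 36 of 45, against 40.8%. Both held for 35 members (77.8%), against 21.6% of tested genes. At the median member KO-labelled replicate 1 had 1.52 times the mean of KO-labelled replicates 2 and 3, and WT-labelled replicate 1 had 0.71 times the mean of WT-labelled replicates 2 and 3, where the medians over tested genes were 1.00 in both. The members as a whole took 3.11%, 1.82% and 1.80% of counted reads in KO-labelled libraries, against 0.91%, 1.60% and 1.62% in WT-labelled libraries. The 4 libraries of replicates 2 and 3 were thus close to each other, and the 2 libraries of replicate 1 lay at the extremes. The group means were 2.25 ± 0.75% in the KO-labelled and 1.38 ± 0.40% in WT-labelled libraries (SD, n = 3 each). The groups did not overlap, and no test was made, since 3 libraries against 3 allow no exact two-sided permutation p below 0.1. Ctsd, Ctsb and Psap together made up 53.2%, 41.8% and 41.5% of the members' reads in KO-labelled libraries and 25.9%, 34.4% and 34.6% in WT-labelled libraries.

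**Figure D4:**
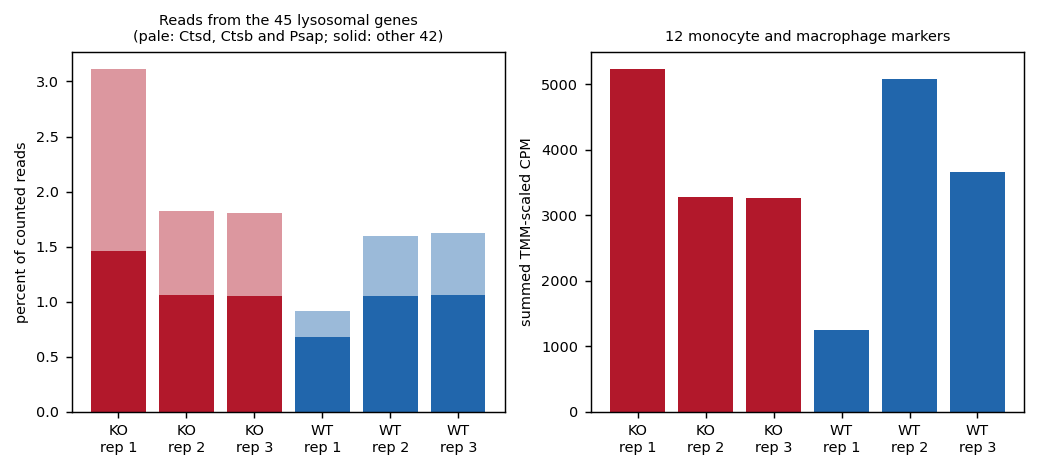
Left, percent of counted reads from the 45 lysosomal genes in each library, with Ctsd, Ctsb and Psap in the pale part; right, summed TMM-scaled CPM of 12 monocyte and macrophage markers; red KO-labelled, blue WT-labelled. The lysosomal share is 3.11% in KO-labelled replicate 1 and 0.91% in WT-labelled replicate 1, and between 1.60% and 1.82% in the other 4 libraries.

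The libraries of replicate 1 were also set beside each other, apart from those of replicates 2 and 3. Over all tested genes, deviations from the group means did not run together between libraries of the same number. The comparison was thus read as one of the distant library of each group, not of matched samples. Whether both libraries of replicate 1 share a batch was not tested. Between the 2 libraries of replicate 1 the KO-labelled level was above the WT-labelled level for 39 of 45 members (86.7%), against 47.6% of tested genes, with a median log2 ratio of 1.11; with 1 library per group this comparison has no replicate check. In the means of replicates 2 and 3 the KO-labelled level was higher for 25 of 45 (55.6%, against 50.2% of tested genes), with a median log2 ratio of 0.07. For 43 of 45 members the ratio was higher in replicate 1 than in replicates 2 and 3, against 50.5% of tested genes, which largely restates that KO-labelled replicate 1 was high and WT-labelled replicate 1 low. The KO-labelled level of Psap was 8.82 times the WT-labelled level in replicate 1 and 1.04 times in replicates 2 and 3. For 14 members the sign differed between these comparisons (31.1%, against 33.4% of tested genes). The KO-labelled level of Ctss was 9.79 times the WT-labelled level in replicate 1 and 0.36 times in replicates 2 and 3. Ctsh showed 6.93 times and 0.39 times, Cd68 2.17 times and 0.32 times, Ctsl 2.48 times and 0.63 times, and Lgmn 1.51 times and 0.041 times.

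**Figure D5:**
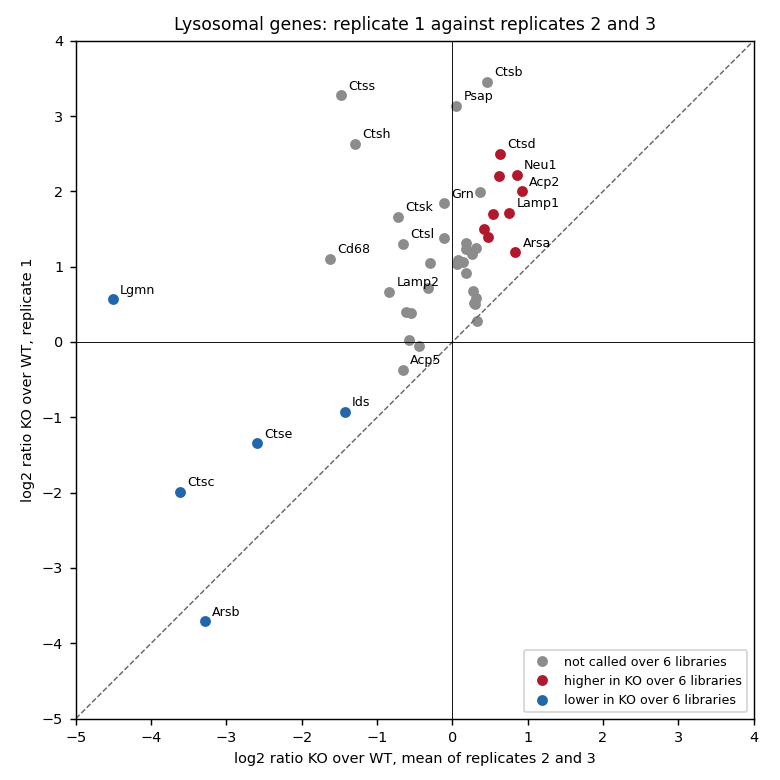
Log2 ratio of KO-labelled to WT-labelled CPM (0.5 CPM added to each) in replicate 1 (vertical) against the means of replicates 2 and 3 (horizontal) for the 45 genes, coloured by the call over all 6 libraries; the dashed line marks equal ratios. Points lie above the line for 43 of 45 genes, and Lgmn, Ctss, Ctsh, Ctsk, Cd68 and Ctsl lie where the ratio is above 0 in replicate 1 and below 0 in replicates 2 and 3.

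Replicates 2 and 3 alone gave 17 members higher and 16 lower by the same test, against 25.8% and 27.1% of 12201 genes. All 9 genes that rose and all 5 that fell over the 6 libraries were called the same way. The 8 further genes called higher were Ctsb, Ctsa, Tpp1, Gaa, Gusb, Manba, Atp6v1h and Atp6ap1, and the 11 further genes called lower were Ctsh, Ctsl, Ctss, Glb1, Man2b1, Sgsh, Asah1, Lamp2, Cd63, Cd68 and Scarb2. Ctss (log2 fold change -1.50), Cd68 (-1.66) and Ctsh (-1.37) had the strongest of these falls and Ctsb (0.44) the strongest of the rises. Of the 8 cysteine proteases 5 were lower and 2 higher in this fit, with a median log2 fold change of -1.26, of 7 membrane proteins 4 were lower and 1 higher, and of 4 V-ATPase genes 3 were higher and 1 did not pass. The median over the 45 was 0.05. With 2 libraries per group, and KO-labelled replicates 2 and 3 close together, the spread behind this test was small.

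The numbers of called members moved with single libraries, as did those of all genes. Without KO-labelled replicate 1, 3 members were higher and 5 lower, against 8.91% and 9.49% of all tested genes. Leaving out KO-labelled replicate 2 gave 4 higher and 4 lower (7.6% and 7.41% of genes), and leaving out KO-labelled replicate 3 gave 4 and 4 (7.89% and 7.54%). Without WT-labelled replicate 1 the counts were 11 and 8 (22% and 20.8%), without WT-labelled replicate 2 they were 4 and 4 (9.87% and 9.95%), and without WT-labelled replicate 3 they were 5 and 4 (9.86% and 10.2%). Of the 14 called members, Arsa, Acp2, Lamp1, Arsb, Ctsc, Ctse and Ids passed with any 1 of the 6 libraries left out (highest edgeR adjusted p 0.046, for Lamp1). Lamp1, Ctse and Ids did not pass when the reads of replicates 2 and 3 were added together within each group (edgeR adjusted p = 0.085, 0.064 and 0.10).

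Cell type markers were set beside these values, since bulk RNA cannot tell fewer cells of a type from less RNA per cell. The 12 monocyte and macrophage markers, of which 10 reached 1 CPM in some library and Cd163 had no read in any, summed to 5232, 3280 and 3264 CPM in KO-labelled libraries and 1253, 5073 and 3653 CPM in WT-labelled libraries. As with the lysosomal genes, replicate 1 was the highest KO-labelled and the lowest WT-labelled library, but the markers differed among themselves: the lysozyme gene Lyz2 had 590 to 1019 CPM in KO-labelled libraries, against 243 to 2705 CPM in WT-labelled libraries, and the receptor gene Csf1r 134 to 353 CPM, against 2.84 to 36.2 CPM. The 9 dendritic cell and antigen-presentation markers, 4 of which reached 1 CPM while Siglech had no read, summed to 444, 184 and 181 CPM in KO-labelled libraries and to 27.2, 114 and 113 CPM in WT-labelled libraries. Most of this was Cd74, the invariant chain gene, with 408, 171 and 169 CPM and 4.92, 90.3 and 87.5 CPM, while Flt3 of the same list had 0.72 to 0.95 CPM and 20.1 to 23.4 CPM. The 8 granulocyte-monocyte progenitor markers, all above 1 CPM in some library, ran the other way within the KO-labelled group, with 1166, 1928 and 1847 CPM, against 4568, 4630 and 3988 CPM in WT-labelled libraries. The 9 neutrophil markers, 6 of which reached 1 CPM while S100a9, Ltf and Camp did not, summed to 113, 49.8 and 57.4 CPM in KO-labelled libraries and to 73.4, 535 and 463 CPM in WT-labelled libraries. The collagenase gene Mmp8 alone gave 16.7, 3.94 and 4.24 CPM and 38.0, 467 and 388 CPM of these sums, and the granule gene Ngp ran the other way, with 3.29 to 3.82 CPM and 0 to 0.17 CPM. Osteoclast markers summed to 55.1 to 65.6 CPM and 49.6 to 75.6 CPM, mostly Nfatc1, with 53.2 to 59.6 and 49.1 to 71.1 CPM. Mast cell and basophil markers summed to 16.6 to 18.3 and 82.0 to 156 CPM. Of these Tpsab1, Tpsb2, Cma1, Fcer1a and Prss34 were at 0 in every library. Gata2 made up most of the WT-labelled sums, with 4.71 to 5.06 CPM in KO-labelled libraries, against 58.0 to 119.7 CPM in WT-labelled libraries. Mcpt8 of this list had 2.97 to 5.67 and 13.5 to 23.6 CPM, and Hdc 6.28 to 7.98 and 6.11 to 10.9 CPM. Megakaryocyte markers summed to 36.3 to 122.8 and 43.4 to 53.8 CPM. Among the megakaryocyte markers Vwf had 35.2 to 121.9 CPM in KO-labelled libraries, against at most 26.2 CPM in WT-labelled libraries, while Itga2b had 0.72 to 1.00 CPM, against 21.2 to 36.1 CPM, and Gp9 0 to 0.090 CPM, against 3.04 to 3.77 CPM. Markers of B, T and NK cells, eosinophils, erythroid and stromal cells summed to no more than 13.0 CPM per list in any library. The part of these cell type differences in the lysosomal values was not tested.

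The other genes of the pathway, taken as 6 lists, were called at a share like that of the 45. Of 119 tested genes 29 rose and 8 fell (24.4% and 6.72%, against 13.7% of all tested genes in each direction). The median log2 fold change was 0.32, and 0.10 in replicates 2 and 3 alone. KO-labelled replicate 1 was the highest KO-labelled library and WT-labelled replicate 1 the lowest WT-labelled library for 62.2% of them, against 21.6% of all tested genes. In replicates 2 and 3 alone 38 of these genes were higher, 29 lower and 51 not called, against 25.8% higher and 27.1% lower of all genes in that fit. Not all of the 119 genes were tested there.

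Of 30 tested hydrolases outside the 45, 7 rose and 3 fell (23.3% and 10%, against 13.7% of all tested genes in each direction). The median log2 fold change was 0.30, but -0.08 in replicates 2 and 3 alone. Ctsf, a cysteine cathepsin, rose to 9.42 ± 6.53 CPM in KO-labelled libraries, against 0.11 ± 0.059 CPM in WT-labelled libraries (SD, n = 3 each, adjusted p = 0.0011 by edgeR). The WT-labelled libraries held only 4, 2 and 1 reads of Ctsf. Aga, which cleaves the link between glycan and asparagine, rose to 46.3 ± 7.62 CPM, against 26.2 ± 2.83 CPM (adjusted p = 0.010 by edgeR). Ctsw, a cathepsin of cytotoxic lymphocytes, fell to 0.12 ± 0.083 CPM in KO-labelled libraries, against 1.66 ± 0.74 CPM in WT-labelled libraries (edgeR adjusted p = 0.0073). The KO-labelled libraries held only 2, 5 and 1 reads of Ctsw. Among 30 tested membrane proteins and transporters 5 rose and 2 fell (16.7% and 6.67%, against 13.7% of all tested genes in each direction). Their median log2 fold change was 0.26, but -0.07 in replicates 2 and 3 alone. The endolysosomal ion channel gene Tpcn1 fell to 50.7 ± 3.31 CPM in KO-labelled libraries, against 99.3 ± 3.95 CPM in WT-labelled libraries (edgeR adjusted p = 0.0012). Tmem192, a membrane protein of the lysosome, rose to 42.7 ± 4.75 CPM in the KO-labelled, against 25.2 ± 1.15 CPM in WT-labelled libraries, and Mfsd1, a transporter, to 243 ± 33.8 CPM, against 141 ± 12.4 CPM (edgeR adjusted p = 0.0061 and 0.0083). Slc11a1, the metal transporter of phagosomes, rose to 41.8 ± 25.4 CPM in the KO-labelled, against 5.44 ± 3.80 CPM in WT-labelled libraries (edgeR adjusted p = 0.023), a call lost without KO-labelled replicate 1, 2 or 3 (0.085, 0.060 and 0.051) or WT-labelled replicate 2 (0.074).

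Of 14 further V-ATPase genes that could be tested, 3 rose and 11 did not pass (median log2 fold change 0.53; 12 of 14 above 0). Atp6v1c1, Atp6v1d and Atp6v1e1, subunits of the peripheral part of the pump, rose by 0.99 (SE 0.19), 0.91 (SE 0.22) and 0.69 (SE 0.19) on the log2 scale, with edgeR adjusted p of 0.0084, 0.023 and 0.038. The calls of Atp6v1d and Atp6v1e1 were lost on leaving out any 1 KO-labelled library or WT-labelled replicate 3 (adjusted p of 0.057 to 0.087), and that of Atp6v1e1 also without WT-labelled replicate 2 (0.085). The 3 called genes, all higher, are 21.4% of the 14, against 13.7% of all tested genes called higher and 27.3% called in either direction. In replicates 2 and 3 alone 5 of the 14 were higher and 3 lower, the lower ones being Atp6v0a1 (log2 fold change -0.21), Atp6v1g1 (-0.57) and Atp6v1g2 (-1.05), also subunits of the pump, against 25.8% and 27.1% of all genes in that fit. Of 14 genes of mannose 6-phosphate tagging and sorting 4 rose and 10 did not pass (28.6% higher, against 13.7% of all tested genes). Their median log2 fold change was 0.18, and 0.20 in replicates 2 and 3 alone. Igf2r, the large mannose 6-phosphate receptor, rose to 89.4 ± 13.2 CPM in KO-labelled libraries, against 7.42 ± 2.39 CPM in WT-labelled libraries, and Sort1, the sorting receptor sortilin, to 609 ± 39.7 CPM, against 240.3 ± 10.8 CPM (edgeR adjusted p = 1.63e-04 and 6.6e-04). Nagpa, which uncovers the mannose 6-phosphate tag, and the adaptor gene Gga1 rose by 0.93 (SE 0.19) and 0.53 (SE 0.13), with the call of Nagpa lost without WT-labelled replicate 3 (0.0504) and that of Gga1 on leaving out any 1 KO-labelled library (0.053, 0.071 and 0.054) or WT-labelled replicate 3 (0.068).

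Of 24 tested MiT/TFE factors and regulators of the lysosomal kinase complex mTORC1, 6 rose and 1 fell. These are 25% and 4.17%, against 13.7% of all tested genes in each direction. The median log2 fold change was 0.45, and 0.16 in replicates 2 and 3 alone. Lamtor2 and Lamtor1, subunits of the Ragulator complex that anchors Rag GTPases to lysosomes, rose to 82.3 ± 4.27 and 228 ± 34.4 CPM in KO-labelled libraries, against 42.9 ± 8.53 and 134 ± 8.57 CPM in WT-labelled libraries (edgeR adjusted p = 0.0061 and 0.0089). The folliculin gene Flcn rose by 0.70 (SE 0.14; edgeR adjusted p = 0.012). Rragb, an X-linked Rag GTPase gene, had 1, 0 and 0 reads in KO-labelled libraries, against 11.4, 11.3 and 7.40 CPM in WT-labelled libraries, and fell (edgeR adjusted p = 1.5e-04). Chosen after their values were seen, Tfeb had 42.9, 31.7 and 30.6 CPM in KO-labelled libraries, against 13.7, 31.8 and 26.5 CPM in WT-labelled libraries, and Mitf 48.2, 38.6 and 36.2 CPM, against 12.1, 32.7 and 28.9 CPM. In both genes WT-labelled replicate 1 was the lowest library, and neither passed (edgeR adjusted p = 0.24 and 0.16). Tfe3, which is X-linked, rose by 0.61 (SE 0.18, edgeR adjusted p = 0.045), a call lost on leaving out any 1 KO-labelled library (0.14, 0.097 and 0.10) or WT-labelled replicate 2 (0.13). Gpnmb, a target of these factors, had 1258, 511 and 513 CPM in KO-labelled libraries, against 11.7, 271 and 239 CPM in WT-labelled libraries, and did not pass (edgeR adjusted p = 0.16).

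Of 7 tested cathepsin inhibitors 4 rose and 2 fell (57.1% and 28.6%, against 13.7% of all tested genes in each direction). The median log2 fold change was 1.29. In replicates 2 and 3 alone it was -0.06, with 3 higher and 3 lower, against 25.8% and 27.1% of all genes. That fit did not test all 7 of these inhibitors, so the medians cover unlike sets of genes. Cst7, which encodes cystatin F, an inhibitor that acts inside lysosomes and targets Ctsc among others, had 88.2, 67.3 and 63.9 CPM in KO-labelled libraries, against 2.63, 1.55 and 1.84 CPM in WT-labelled libraries. The groups were far apart (log2 fold change 5.17, SE 0.26, edgeR adjusted p = 4.71e-05), in the direction opposite to Ctsc. The stefin-like gene Gm5483 had 1.80, 2.12 and 2.69 CPM in KO-labelled libraries and no read in WT-labelled libraries, where a floor of 3 reads is 0.12 to 0.18 CPM. Serpinb6a and Serpinb1a, inhibitors of granule serine proteases, fell to 14.3 ± 2.98 and 427 ± 16.8 CPM in KO-labelled libraries, against 69.7 ± 15.4 and 804 ± 95.1 CPM in WT-labelled libraries (edgeR adjusted p = 5.7e-04 and 0.0055).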

How the data were processed

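Per the labels, libraries were made with a stranded TruSeq mRNA kit. The authors deposited raw, unnormalized read counts for each gene. Per the submitters' processing notes, FastQC 0.11.7, HISAT2 2.0.5, featureCounts 1.5.2 and mm10 were used; which annotation and which strand option served the counting is not given in the sources used here.

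Fold changes are KO-labelled over WT-labelled. The model was fitted in R 4.3.3 with edgeR 4.0.16 (TMM, default low-count filter, robust quasi-likelihood test, Benjamini-Hochberg adjustment over all genes at 0.05); SE is the log2 fold change over the root of the test's F. Levels are TMM-scaled CPM, ± is SD. Exon lengths and positions came from GENCODE annotation of mm10 and promoters from RefSeq (GRCm38.p6). The fits were tested on simulated counts. There the main fit recovered 37% of 2-fold and 84% of 4-fold changes, with 10 false among 131 calls. DESeq2 had 46 false among 198 calls. Replicates 2 and 3 alone recovered 7% of 2-fold and 67% of 4-fold changes, with 6 false among 80 calls. Each gene was drawn separately and no simulated library was made distant, unlike replicate 1 here. These rates therefore need not hold for these libraries. The 45 members and all lists were chosen with earlier results of these data known, and so was the fit of replicates 2 and 3 alone. Other scalings, filters, tools (limma 3.58.1, DESeq2 1.42.0), a block, stricter thresholds, summed replicates and leaving out each library were alternatives. The 14 called members, the 5 most abundant, and up to 4 called genes per pathway list by p were named by rule, of which 1 hydrolase is not reported here. Ctss, Ctsl, Ctsh, Lamp2 and Cd68 were given in more detail after their values were seen. Floors cover counting error only.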

Additional observations from a re-analysis of the deposited data

How the results depend on the processing

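Over 18 other fits, called members that rose gave 117 values on the same side of the threshold and 45 that missed it, those that fell 78 and 12, and none turned. Among members that did not pass, 31 values came to pass in the same direction, and Sgsh and Asah1 turned negative and passed in replicates 2 and 3 alone (log2 fold changes -0.35 and -0.31). The other scalings and filters kept 9 members higher and 5 or 4 lower, and limma-voom 9 and 4. Counts of members higher were 16 with DESeq2, 2 with a replicate block, 17 in replicates 2 and 3 alone, 2 with replicates 2 and 3 summed in each group, 4 with only the KO-labelled ones summed, 2 at an adjusted p of 0.01 and 5 at 2-fold; counts lower were 16 in replicates 2 and 3 alone and 2 with both groups summed. Leaving out a library gave 3 to 11 higher and 4 to 8 lower.

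For all genes, higher and lower counts were 1660 and 1656, and 2061 and 2026 with DESeq2. They were 989 and 1034 with the block, 3149 and 3309 in replicates 2 and 3 alone, and 543 and 518 with both groups summed. They were 982 and 945 with the KO-labelled ones summed, 821 and 873 at 0.01, and 988 and 1003 at 2-fold. Without a library they were 939 to 2712 and 916 to 2568. The 6 pathway lists went from 29 and 8 to 13 higher with the block, 30 lower in replicates 2 and 3 alone, 7 and 3 with both summed, 17 and 5 with the KO-labelled ones summed, 12 and 5 at 0.01, 10 and 4 at 2-fold, and 17 to 35 and 5 to 19 without a library. The stricter thresholds lower counts by construction; the cause of the other shifts was not tested. Counts for these lists cover all list genes that each fit tested. Replicates 2 and 3 alone thus gave 39 higher and 30 lower here, against 38 and 29 among the 119 genes tested over 6 libraries. The E-box share was 34.2% with the core alone.

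Over all tested genes, deviations from the group means correlated at -0.07, -0.14 and 0.04 between libraries of number 1, 2 and 3. These values cannot tell whether some genes shift with the replicate number. Gapdh was high in both libraries of replicate 1, and a shared batch was not tested. With the replicate block, the calls of Lamp1 and Neu1 were among those lost (adjusted p = 0.057 and 0.063 by edgeR). Ctsk and Acp5 had at most 47 reads in any library.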
